A study of Mus musculus with 20 samples.

Results

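In bone marrow-derived macrophages from C57BL/6 mice, 794 of 11222 counted enhancers were dependent on CpG DNA by a rule on their levels. An enhancer was taken when it held at least 30 tags over the 20 libraries and its mean level in the 12 libraries with CpG was at least 2 times that in the 8 libraries without. Enhancers whose mean in the 12 libraries with interferon gamma (IFN-γ) was at least 2 times that in the 8 without were left out, which removed 109 of 903. In all, 3969 enhancers held 30 or more tags, and all of them were tested, so that every one of the 794 entered each test and 3175 others served for comparison. The enhancers were thus chosen by their deposited RPM levels and tag totals in these same libraries.

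The 20 libraries were made by nAnT-iCAGE, which sequences the capped 5' ends of RNA with no amplification step, so that a tag is a reading of transcription initiation in a region listed as an enhancer. The macrophages were differentiated with M-CSF supplied in conditioned medium of L929 cells. They were left unstimulated (0 h) or received IFN-γ, CpG or both for 3, 9 or 15 h. Each of these 10 groups held 2 libraries, which the series describes as biological replicates. Unstimulated means without IFN-γ and CpG, since the protocol text also describes polarization with IL-4 and IL-10 and does not state which cells received it. That text gives 1 length of stimulation, which differs from the times on the samples. The unstimulated samples used here are all of 0 h.

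Enhancers are stretches of DNA that raise transcription of genes, often at a distance, and active ones are commonly transcribed into short, unstable RNAs in both directions. Unmethylated CpG DNA is read in endosomes by Toll-like receptor 9, which signals through MyD88 to NF-κB, MAP kinases and IRF factors. IFN-γ acts through its own receptor, and macrophages primed by it are known to respond differently to Toll-like receptor ligands, with some inflammatory genes enhanced and others repressed. The CpG DNA that the protocol text names is ODN-1826, an oligonucleotide of 20 bases that holds the dinucleotide 2 times. It is shown because it is the stimulus that defines these enhancers, with each CG in capitals.
ODN-1826: tccatgaCGttcctgaCGtt
The sequences of the enhancers and the genes near them were not analysed here, and positions are those of the deposited table on mm39.

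Levels are given as RPM, tags per 1000000 tags of the whole library (12776280 to 13855472 tags), or as the tags of the 2 libraries of a group. A tag marks the start of an RNA molecule, so a level needs no division by length. Enhancers held 12879 to 29794 tags per library. The 794 enhancers were shallow, with a median of 48 tags over all 20 libraries (30 to 604) and of 2 tags in a single library, and 22.2% of their values were 0. Only 107 of them held 100 tags or more. Between replicates the Pearson correlation of log levels, taken over enhancers, was 0.67 to 0.78, and the chi-square of their counts, divided by its degrees of freedom, was 1.09 to 1.17, slightly above sampling noise. Differences below are log2 changes ± SE from edgeR with Benjamini-Hochberg adjustment over all 3969 enhancers, called at an adjusted p under 0.05. They compare enhancer tags scaled by TMM factors, so that a change is relative to the other enhancers. For single sums no test is given, since with 2 libraries a group the smallest p of an exact permutation test is 0.333.

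The measures that chose the enhancers are given as a description. The median ratio between libraries with and without CpG was 3.23, with 358 enhancers at 2 to under 3, 157 at 3 to under 4 and 279 at 4 or more. Taken from the libraries of replicate 1 alone, 662 reached a ratio of 2, from replicate 2 alone 682, and in each of them 550 (69.3%). In 34 of the 794, every library with CpG lay above every library without it. The rule favours such a separation, and the count was not made over all tested enhancers. No tag was found in either unstimulated library for 114, in any of the 6 libraries with IFN-γ alone for 50, and in any of the 8 libraries without CpG for 29. Just inside the ratio of 2 were chr14:66456230-66456841 at 0.464 against 0.232 RPM and chr9:124194039-124194450 at 0.259 against 0.129. Just outside it were chr15:6586556-6586802 at 1.16 against 0.583 RPM and chr11:33962040-33962352 at 0.315 against 0.158. At the limit on IFN-γ, chr17:7665505-7665896 (ratio 1.98) and chr11:116506512-116506793 (1.98) were inside, and chr7:83509046-83509243 (2.02) and chr17:43868045-43868374 (2.02) were outside.

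Summed over all 794, the level with CpG was higher at 9 and 15 h than at 3 h. It was 110 ± 7.1 RPM in unstimulated cells (mean ± SD, n = 2), and 232 ± 5, 324 ± 7.14 and 304 ± 11.6 RPM with CpG at 3, 9 and 15 h. With both stimuli the sums were 233 ± 44.4, 216 ± 10.7 and 315 ± 45.7 RPM, so that both libraries at 9 h lay below both with CpG alone, while the groups overlapped at 3 and 15 h. With IFN-γ alone they were 67.1 ± 14.8, 71.5 ± 17.9 and 56.6 ± 2.77 RPM.

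The combination at 3 and 15 h also had the highest mean level of all enhancers together (1910 ± 419 and 1860 ± 317 RPM), so the share of enhancer tags was compared too. The 794 took 17.8 ± 0.64%, 20.3 ± 0.157% and 20.1 ± 0.0132% of enhancer tags with CpG at 3, 9 and 15 h. With both stimuli they took 12.2 ± 0.363%, 15.9 ± 0.231% and 17 ± 0.438%. At each time both libraries with CpG alone lay above both with the combination, and with the combination the share was higher at 9 h than at 3 h in both libraries although its mean RPM was not. Enhancers dependent on IFN-γ are kept out of the 794 by the rule but count in the total of enhancer tags. The rule thus takes part in the lower share with the combination, and how much was not tested. In unstimulated cells the share was 7.11 ± 0.192%, and with IFN-γ alone it was 5.81 ± 0.132%, 4.65 ± 0.0692% and 4.38 ± 0.00476%.

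**Figure D1:**
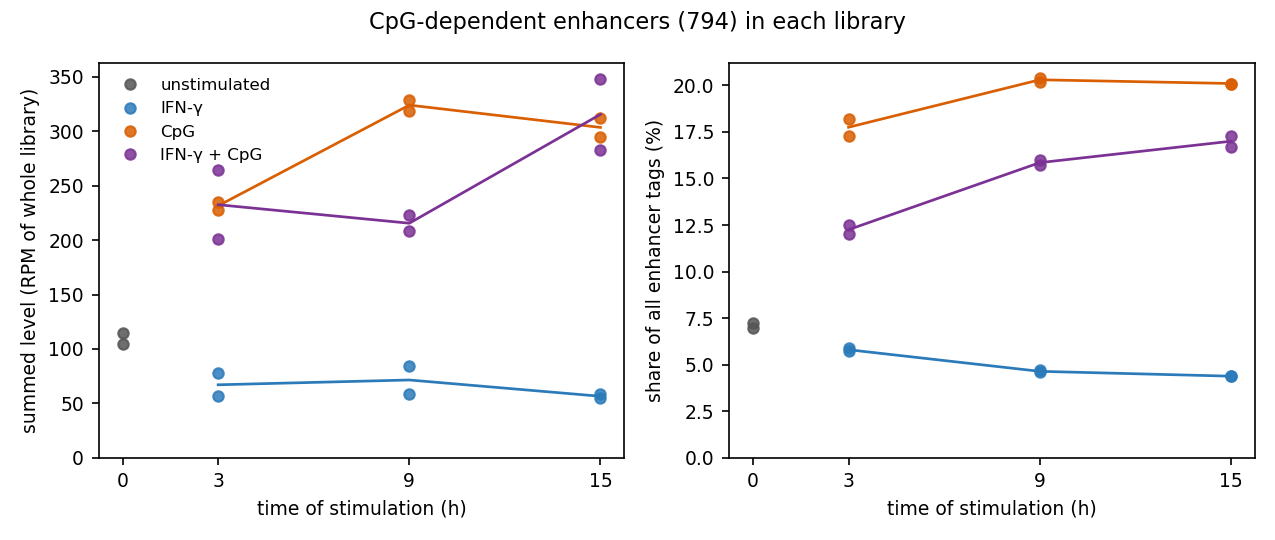
Summed level of the 794 CpG-dependent enhancers in RPM (left) and their share of all enhancer tags in % (right) against time of stimulation in h. Points are single libraries, lines join the means of 2, and colours are the stimuli. At 9 h the combination lies below CpG alone in both panels, while at 3 and 15 h it does so only in the share. The total behind the share includes enhancers dependent on IFN-γ, which the rule keeps out of the 794.

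Few single enhancers changed between the times with CpG alone. From 3 to 15 h, 4 of the 794 were higher and 2 lower, where of all tested enhancers 0.202% were higher and 0.252% lower. From 3 to 9 h, 4 were higher and 1 lower (0.202% and 0.101% of all tested). From 9 to 15 h edgeR called 0 of the 794 (0% of all tested), as did DESeq2. At an unadjusted edgeR p under 0.05, 19 of the 794 were higher and 23 lower, and of all 3969 tested 102 and 121. The median log2 change from 3 to 15 h was 0.16 over the 794 and 0 over all tested. Leaving out any 1 of the 4 libraries left 1 call from 3 to 15 h, the same enhancer each time. It also left 1 call from 3 to 9 h, which was a rise in some of these fits and a fall in others, so that none from 3 to 9 h held throughout. DESeq2 made 1 call in each comparison.

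The call from 3 to 15 h that held without each library was chr19:11349540-11350041, the most strongly transcribed of the 794. With CpG it held 8 and 5 tags at 3 h, 38 and 48 at 9 h and 63 and 61 at 15 h. With both stimuli it held 8 and 18, 66 and 64, and 106 and 98 tags. In the 8 libraries without CpG it held 21 tags in all. With either kind of stimulation both libraries lay higher at each later time than at the time before. From 3 to 15 h the log2 change was 3.07 ± 0.39 with CpG (edgeR adjusted p = 2.51e-11) and 2.98 ± 0.33 with both (edgeR adjusted p = 2.56e-16).

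Of the other rises with CpG alone, chr9:7871545-7872319 went from 4 and 2 tags at 3 h to 22 and 18 at 15 h (log2 2.53 ± 0.59, edgeR adjusted p = 0.0111). Enhancer chr3:10087603-10088029 went from 4 and 2 to 20 and 16 tags (2.38 ± 0.63, edgeR adjusted p = 0.0405). Enhancer chr17:18102988-18103257 had no tag at 3 h and 11 and 6 at 15 h. With 3 tags taken as the floor of its 2 libraries at 3 h, it was higher by at least 5.82-fold (edgeR adjusted p = 0.0297). Falls were seen at chr13:120561689-120561992, from 18 and 16 to 5 and 2 tags (log2 -2.4 ± 0.61, edgeR adjusted p = 0.0291), and at chr17:56268411-56268705, from 31 and 33 to 10 and 16 (-1.45 ± 0.39, edgeR adjusted p = 0.049). In each of these 5 the groups did not overlap, yet each call was lost without any 1 of the 4 libraries of CpG at 3 or 15 h, with adjusted p of 0.0688 to 0.316 for chr17:18102988-18103257, 0.0688 to 0.328 for chr9:7871545-7872319, 0.16 to 0.439 for chr3:10087603-10088029, 0.146 to 0.371 for chr13:120561689-120561992 and 0.141 to 0.499 for chr17:56268411-56268705. By whole-library totals neither fall was called (edgeR adjusted p = 0.103 and 0.21).

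With both stimuli, rises between 3 and 15 h outnumbered falls. From 3 to 15 h, 39 of the 794 were higher and 9 lower (4.91% and 1.13%), where of all tested enhancers 3.00% were higher and 3.20% lower. The tested enhancers include 849 dependent on IFN-γ (ratio 2 or more with IFN-γ, under 2 with CpG), which the rule keeps out of the 794. Of these 849, 12 were higher and 69 lower, with a median log2 change of -0.54. The median log2 change was 0.36 over the 794 and 0 over all tested. From 3 to 9 h, 11 were higher and 1 lower (1.03% and 1.13% of all tested), which became 4 higher and 4 lower by whole-library totals, where the median of all tested enhancers moved from -0.08 to -0.41. From 9 to 15 h, 1 was higher (0.0252% of all tested). Leaving out any 1 of the 4 libraries left 11 to 19 calls from 3 to 15 h and 4 to 5 from 3 to 9 h. DESeq2 called 3 enhancers from 3 to 15 h, all higher.

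**Figure D2:**
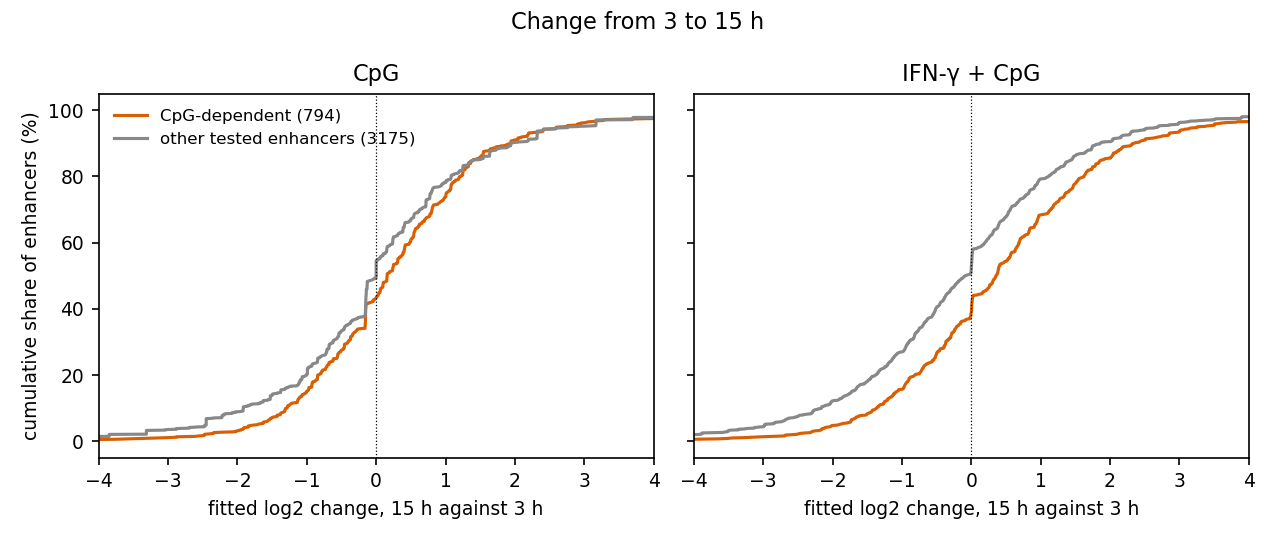
Cumulative share of enhancers in % against the fitted log2 change from 3 to 15 h, with CpG alone (left) and with both stimuli (right). Orange lines are the 794 CpG-dependent enhancers and grey lines the 3175 other tested enhancers. With both stimuli the orange line lies to the right of the grey one, with a median of 0.36 against -0.08. The grey lines include 849 enhancers dependent on IFN-γ, whose median with both stimuli was -0.54.

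Of the 39 enhancers that rose from 3 to 15 h with both stimuli, 7 were called without each library in turn. These include, besides chr19:11349540-11350041, 2 others that DESeq2 also called. Enhancer chr11:96713520-96713807 held 3 and 2 tags at 3 h, 9 and 11 at 9 h and 34 and 30 at 15 h (log2 3.61 ± 0.55, edgeR adjusted p = 2.82e-08). Enhancer chr7:75319181-75319526 held 12 and 18, 21 and 17, and 98 and 54 tags (2.36 ± 0.33, edgeR adjusted p = 6.67e-10). With CpG alone these 2 already stood at 12 and 17 tags and at 28 and 34 tags at 3 h, and their rises to 15 h did not pass the test (log2 1.04 ± 0.38 and 0.51 ± 0.31, edgeR adjusted p = 0.235 and 0.584).

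The other 4 of the 7 were chosen here after their values were seen, except chr7:83248584-83248851. That enhancer had no tag at 3 h, 3 and 4 at 9 h and 13 and 16 at 15 h, a rise of at least 10-fold (edgeR adjusted p = 6.95e-05). Enhancer chr5:65042388-65042734 went from 1 and 3 to 15 and 30 tags (log2 3.4 ± 0.65, edgeR adjusted p = 3.82e-05), chr8:71067165-71067416 from 0 and 2 to 12 and 20 (3.82 ± 0.79, edgeR adjusted p = 2.13e-04), and chr1:171446627-171446942 from 5 and 6 to 27 and 35 (2.47 ± 0.47, edgeR adjusted p = 3.82e-05). In each of these 4 both libraries at 15 h lay above both at 3 h. DESeq2 gave an adjusted p of 0.101 to 0.143 for them.

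Among the other rises named for a large fitted change, chr17:18102988-18103257 went from no tag to 12 and 7 (at least 6.57-fold, edgeR adjusted p = 0.00155), a call lost without combination 3 h replicate 2. Enhancer chr16:20220416-20220687 went from no tag to 6 and 13 (at least 6.57-fold, edgeR adjusted p = 0.00182), lost without combination 3 h replicate 2 (0.0724) or 15 h replicate 2 (0.0801). Enhancer chr14:30357295-30357529 went from no tag to 5 and 9 (at least 4.84-fold, edgeR adjusted p = 0.00994), lost without 3 h replicate 1 (0.0882), 3 h replicate 2 (0.132) or 15 h replicate 2 (0.105). None of these 3 had a tag at 3 h in the combination, so their folds rest on the floor and cannot be ranked. All 3 were transcribed in both libraries of the combination at 9 h.

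The falls with both stimuli were fewer, and none held without each library. Enhancer chr19:21008956-21009257 went from 6 and 10 tags at 3 h to none at 15 h (at least 5.14-fold lower, edgeR adjusted p = 0.00572), lost without 3 h replicate 2 (0.0716), 15 h replicate 1 (0.0673) or 15 h replicate 2 (0.105). Enhancer chr8:68609764-68610230 went from 9 and 3 to none (lower by at least 3.85-fold, edgeR adjusted p = 0.0181), lost without 3 h replicate 1 (0.243), 15 h replicate 1 (0.114) or 15 h replicate 2 (0.16), and with CpG alone it held 15 and 8 tags at 3 h and 1 and 2 at 15 h, a change that did not pass the test. Enhancers chr11:117832354-117832607, with 16 tags against 1 (ratio 15.4, exact 95% counting interval 2.4 to 647), and chr4:9676216-9676626, with 14 against 1 (ratio 13.5, 2.05 to 570), were called (edgeR adjusted p = 0.0162 and 0.0455) but lost without any 1 of the 4 libraries (0.0605 to 0.158 and 0.0971 to 0.33). Each of these falls thus rests on 12 to 16 tags at 3 h.

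The time of the highest mean level summarises the same kinetics without a test. By RPM, 167 of the 794 peaked at 3 h with CpG alone (21.0%), 343 at 9 h (43.2%) and 284 at 15 h (35.8%), where the shares among the 3175 others were 31.4%, 31.8% and 36.8%. With both stimuli 252 peaked at 3 h (31.7%), 130 at 9 h (16.4%) and 412 at 15 h (51.9%), where the others had 44%, 16.6% and 39.4%. With TMM scaling, added after these values were seen, the counts were 231, 301 and 262 with CpG and 243, 228 and 323 with both, so that the low count at 9 h in the combination depended on scaling. The most frequent pair was a peak at 9 h with CpG and at 15 h with both (183 enhancers, 23.0%), followed by 15 h with both kinds of stimulation (167, 21.0%). Among the 107 enhancers with at least 100 tags, 14 peaked at 3 h, 53 at 9 h and 40 at 15 h with CpG.

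The 6 enhancers with the highest level in libraries with CpG did not share 1 course. Besides chr19:11349540-11350041, chr7:75319181-75319526 and chr11:96713520-96713807, they were chr11:97200213-97200543, chr14:103274507-103274952 and chr17:56268411-56268705. Enhancer chr11:97200213-97200543 held 20 and 31, 33 and 42, and 46 and 43 tags with CpG at 3, 9 and 15 h. With both stimuli it held 5 and 15, 8 and 7, and 15 and 25, below CpG alone in both libraries at every time and also below the 20 and 20 tags of unstimulated cells at 3 and 9 h. Enhancer chr14:103274507-103274952 held 11 and 13, 25 and 19, and 21 and 15 tags with CpG and 37 and 24, 25 and 18, and 16 and 33 with both, with groups that overlapped at 9 and 15 h. Enhancer chr17:56268411-56268705 held 31 and 33, 33 and 33, and 10 and 16 tags with CpG, and 13 and 9, 20 and 11, and 11 and 14 with both. It was the only one of the 6 with a called fall with time, a call lost without any 1 of the libraries of CpG at 3 or 15 h, as given above.

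**Figure D3:**
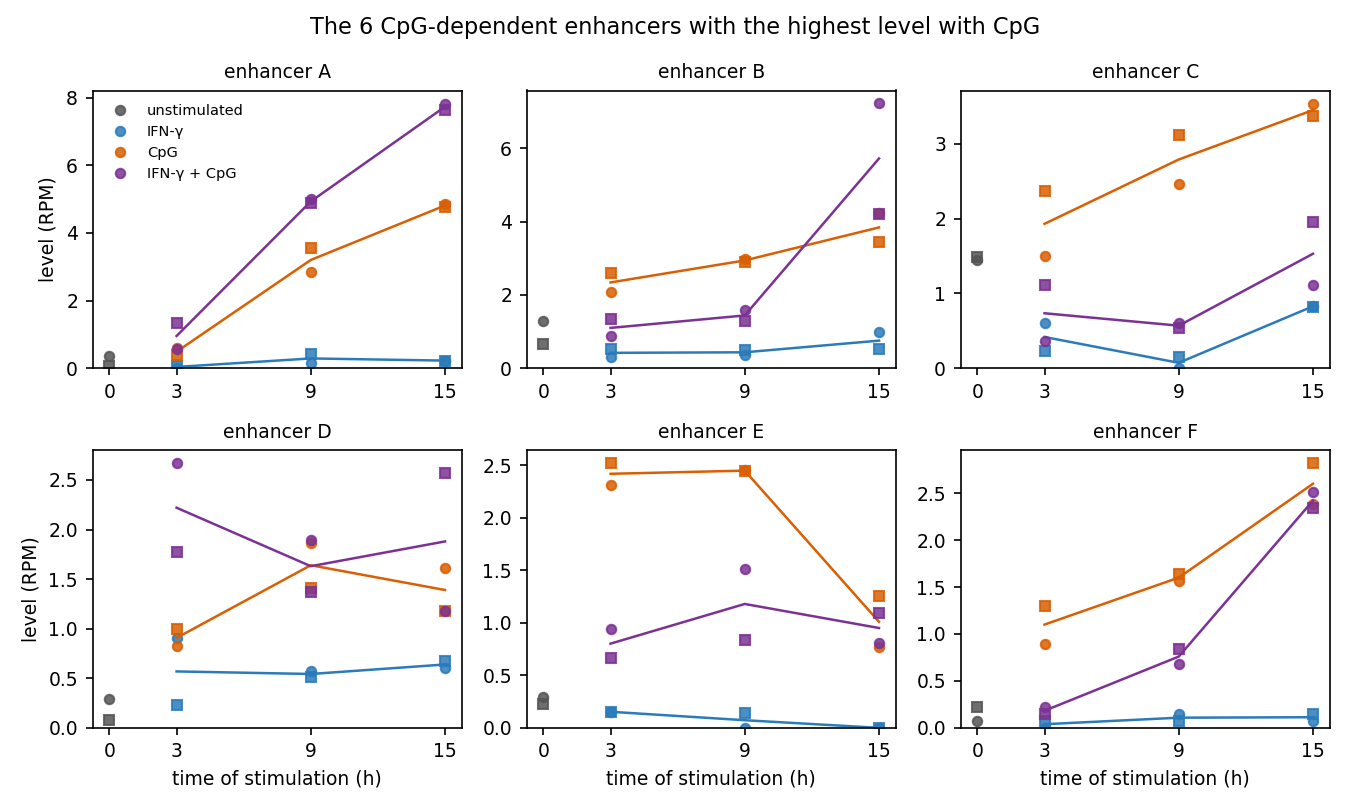
Level in RPM against time in h for the 6 CpG-dependent enhancers with the highest mean over the libraries with CpG: A is chr19:11349540-11350041, B chr7:75319181-75319526, C chr11:97200213-97200543, D chr14:103274507-103274952, E chr17:56268411-56268705 and F chr11:96713520-96713807. Circles are replicate 1, squares replicate 2, and lines join group means. A and B are highest at 15 h with both stimuli, F is highest at 15 h with CpG alone (mean 2.6 against 2.42 RPM with both), C stays lower with both stimuli than with CpG at every time, and E is lower at 15 h than at 9 h with CpG.

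Of the 29 enhancers without a tag in the 8 libraries without CpG, the 5 with the most tags are described. Enhancer chr9:88842125-88842581 held 1 and 1, 4 and 8, and 7 and 1 tags with CpG at 3, 9 and 15 h and 4 and 6, 6 and 8, and 17 and 7 with both. Enhancer chr19:32173751-32173942 held 4 and 5, 12 and 8, and 8 and 8 with CpG and 0 and 4, 2 and 3, and 7 and 5 with both. Enhancer chr6:49478371-49478772 held 4 and 6, 9 and 7, and 3 and 2 with CpG and 3 and 6, 4 and 9, and 3 and 8 with both. The last 2 of the 5 are chr17:18102988-18103257 and chr7:83248584-83248851, described above, which had 0 and 3 tags with CpG at 3 h. The 5 therefore differed in how early tags appeared. Over the 3 times with IFN-γ added, chr9:88842125-88842581 held more tags in sum at each time and chr19:32173751-32173942 fewer.

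On adding IFN-γ to CpG, more of the 794 were called lower than higher, a balance that the rule takes part in. Over the mean of the 3 times, 105 of the 794 were lower with both stimuli than with CpG alone and 13 higher (13.2% and 1.64%), where of all tested enhancers 9.32% were lower and 14.3% higher. The rule bears on this count and on the comparison with all tested enhancers, since leaving out enhancers dependent on IFN-γ removes those that rise. With the 109 left-out enhancers put back, a check added after the counts were seen, 105 of 903 were lower and 86 higher. The exclusion thus removed no fall, but it moves the medians and shares of the 794 against those of all tested enhancers. The count was 76 to 100 with 1 of the 12 libraries left out, and the lowest, without CpG 15 h replicate 1, was 63 lower and 13 higher. DESeq2 called 19 lower and 4 higher, whole-library totals gave 75 lower and 17 higher, and RLE factors 92 lower and 20 higher.

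The difference was not called equally often at each time. At 3 h, 36 were lower and 5 higher (3.70% and 8.44% of all tested), at 9 h 17 and 3 (1.26% and 3.15%), and at 15 h 6 and 1 (0.907% and 1.94%). The rule takes part in these balances too. With the left-out enhancers put back, 36 were lower and 41 higher at 3 h, 17 and 25 at 9 h, and 6 and 18 at 15 h. Without the left-out enhancers, 49 were lower at 1 time at least and 9 higher at 1 time at least, and 2 were lower at all 3 times. The rule takes part in this balance as well. The same counts were not made over all tested enhancers or with the left-out enhancers put back. With any 1 of the 4 libraries of a time left out, the calls at 3, 9 and 15 h numbered 14 to 16, 3 to 5 and 2 to 3, and DESeq2 made 1, 2 and 0. The share of falls at 3 h depended on scaling: whole-library totals gave 24 lower and 12 higher, and limma on RPM 39 lower and 37 higher.

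The median log2 difference between both stimuli and CpG was -0.34 at 3 h, -0.38 at 9 h and -0.19 at 15 h over the 794, and 0.11, 0 and 0.11 over all tested enhancers. By whole-library totals the medians of all tested moved to 0.42, -0.26 and 0.28, and those of the 794 to -0.04, -0.63 and -0.03. The distance between the medians was -0.46, -0.38 and -0.31 with both scalings. Scaling moves most enhancers by a like amount, so this likeness is largely built in. The distance was not the same in every setting. It was -0.35 at 9 h with RLE factors, and -0.11, -0.14 and -0.09 at 3, 9 and 15 h with limma on RPM. With the left-out enhancers put back, the medians by TMM were -0.08, -0.14 and -0.01. In sign alone, 241 of the 794 (30.4%) were lower with both stimuli at all 3 times and 96 (12.1%) higher. With the left-out enhancers put back it was 241 of 903 (26.7%) and 191 (21.2%), and among the other 3066 tested enhancers 21% and 28.4%.

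**Figure D4:**
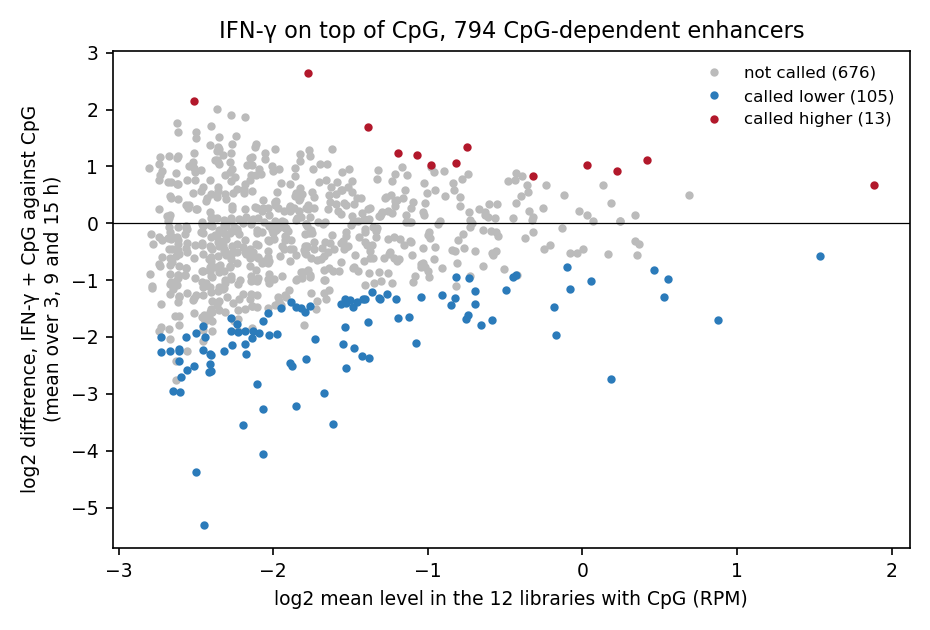
Log2 difference between both stimuli and CpG alone, as the mean over 3, 9 and 15 h, against the log2 mean level in the 12 libraries with CpG (RPM), for each of the 794 enhancers. Blue points are the 105 called lower, red points the 13 called higher and grey points those not called. Calls are found over the whole range of levels, and those among the lowest levels have the largest fitted differences.

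The share called was higher among deeper enhancers. Of the 107 with at least 100 tags, 24 were lower and 8 higher over the mean of times (22.4% and 7.48%), and of the 514 with 30 to 59 tags, 56 and 2 (10.9% and 0.389%). The same strata of all tested enhancers had 16.8% and 21.6%, and 7.08% and 11.6%. Since the rule removed rises, the strata were also counted with the left-out enhancers put back. There 20.5% were lower and 15.4% higher at 100 tags or more, and 9.44% and 7.76% at 30 to 59. The calls that follow were counted among the CpG-dependent enhancers alone, not over all tested enhancers or with the left-out enhancers put back. The rule thus takes part in their balance too, and how much was not tested. In all, 29 falls and 5 rises were called in every fit without 1 library, and 18 of these falls and 3 of these rises also by DESeq2.

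The lowest adjusted p for IFN-γ added to CpG was found at chr6:146014641-146015042. It held 11 and 10 tags with CpG at 3 h, 40 and 30 at 9 h and 37 and 27 at 15 h. With both stimuli it held 2 and 1, 2 and 6, and 9 and 5 tags, and with IFN-γ alone 1 and 0, 2 and 1, and 3 and 0. Every library with IFN-γ lay below every library with CpG alone and below the 13 and 14 tags of unstimulated cells. The level was 6.28-fold lower with both stimuli (155 against 25 tags), with a mean log2 difference of -2.74 ± 0.33 (edgeR adjusted p = 4.31e-14). It was lower at 3 h (-3.06 ± 0.74, edgeR adjusted p = 0.00187), 9 h (-2.8 ± 0.5, 7e-06) and 15 h (-2.37 ± 0.45, 3.43e-05), where the call at 3 h was lost without combination 3 h replicate 2 (0.0769).

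Another of the 794 on the same chromosome, chr6:145960130-145960486, had no tag in any of the 6 libraries with both stimuli, and 4 and 4, 6 and 5, and 4 and 6 with CpG. Its mean difference was called (edgeR adjusted p = 3.05e-06) in every fit without 1 library. At 15 h alone it was at least 3.41-fold lower (edgeR adjusted p = 0.0408), a call lost without any 1 of the 4 libraries (0.111 to 0.235) and by whole-library totals (0.0584). These 2 enhancers lie within 54912 bases of each other, and no other tested enhancer lies between them. The pair was picked out because both were called lower in every such fit, so their shared direction is no separate result.

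Enhancer chr11:97200213-97200543, whose tags are given above, was lower at 3, 9 and 15 h (log2 -1.72 ± 0.42, -2.01 ± 0.42 and -1.36 ± 0.34, edgeR adjusted p = 0.00182, 3.24e-04 and 0.00606). The call at 3 h was lost without CpG 3 h replicate 2 (0.118) or combination 3 h replicate 1 (0.079), and that at 15 h without CpG 15 h replicate 1 (0.0839), CpG 15 h replicate 2 (0.0703) or combination 15 h replicate 1 (0.138). Along with chr6:146014641-146015042 it was 1 of the 2 called at all 3 times. Its mean difference was -1.7 ± 0.23 (edgeR adjusted p = 1.52e-11). The span chr11:96713520-97202116 was picked out after its values were seen. It was drawn around those of the 794 called lower over the mean of times in every fit without 1 library. It held 3 of these and no other tested enhancer, so their shared direction was fixed by how the span was drawn. The third, chr11:97201755-97202116, held 4 and 1, 5 and 3, and 9 and 5 tags with CpG, and 1 tag over the 6 libraries with both stimuli.

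At chr5:90759196-91048421, a span of 289225 bases picked out after its values were seen, 7 of 9 tested enhancers were among the 794. All 7 had a mean difference below 0, 5 were called lower and 4 of these in every fit without 1 library. The span was drawn around these 4. The first, chr5:90759196-90759569, held 9 and 9, 8 and 4, and 2 and 4 tags with CpG and 0 and 1, 0 and 0, and 0 and 1 with both, 36 tags against 2 (ratio 18.2, exact 95% counting interval 4.69 to 156, edgeR adjusted p = 2.18e-05). The deepest, chr5:91048099-91048421, held 12 and 20, 23 and 15, and 21 and 19 tags with CpG and 4 and 9, 6 and 6, and 2 and 4 with both (log2 -1.97 ± 0.31, edgeR adjusted p = 4.28e-08). At 15 h it was 6.82-fold lower (edgeR adjusted p = 2.09e-04). The remaining pair of the 4, chr5:90843879-90844435 and chr5:91046410-91046931, differed by -1.78 ± 0.37 and -2.34 ± 0.51 (edgeR adjusted p = 4.02e-05 and 1e-04). Of all 9 tested enhancers in the span, 7 were called lower and none higher, so the falls there were not confined to the 794.

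The other enhancers named for a large fall lie on chromosome 11. Enhancer chr11:117224989-117225392 held 3 and 5, 12 and 8, and 12 and 6 tags with CpG, and 1 and 2, 0 and 0, and 3 and 0 with both (7.76-fold lower, log2 -3.53 ± 0.7, edgeR adjusted p = 1.52e-05). Enhancer chr11:83471672-83472028 held 10 and 5, 9 and 6, and 4 and 6 with CpG, and 0 and 1, 1 and 0, and 2 and 0 with both (10.1-fold lower, -3.22 ± 0.65, edgeR adjusted p = 2.18e-05). In both enhancers the libraries with CpG alone did not overlap those with the combination at 3, 9 or 15 h.

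Of the 13 enhancers higher with both stimuli than with CpG alone, 5 were called in every fit without 1 library. Enhancer chr17:7665505-7665896 held 1 and 2, 3 and 1, and 4 and 3 tags with CpG and 8 and 8, 9 and 7, and 9 and 6 with both (3.32-fold higher, log2 1.69 ± 0.48, edgeR adjusted p = 0.00377). It lies just inside the limit on IFN-γ. Enhancer chr17:50464319-50464807 held 11 and 11, 10 and 14, and 10 and 5 with CpG and 23 and 33, 17 and 14, and 19 and 20 with both (2.04-fold higher, 0.93 ± 0.26, edgeR adjusted p = 0.00377). For these 2, DESeq2 gave an adjusted p of 0.0556 and 0.0402. The other 3 of the 5 are named here after their values were seen. Enhancer chr8:112288555-112288793 had the largest fitted rise of the 5 on few tags, with 5 and 2, 3 and 0, and 0 and 0 with CpG and 10 and 8, 7 and 3, and 2 and 7 with both (log2 2.64 ± 0.71, edgeR adjusted p = 0.00244, DESeq2 0.0644). Enhancer chr1:171486081-171486566 held 15 and 10, 7 and 7, and 16 and 10 with CpG and 27 and 32, 14 and 22, and 23 and 30 with both (1.11 ± 0.25, edgeR adjusted p = 2.1e-04, DESeq2 0.00608), without overlap at any time. Enhancer chr2:117129364-117129727 held 4 and 8, 12 and 13, and 7 and 8 with CpG and 19 and 13, 16 and 13, and 24 and 26 with both (1.02 ± 0.28, edgeR adjusted p = 0.00308, DESeq2 0.0269). The strongest enhancer, chr19:11349540-11350041, was also higher over the mean of times (0.67 ± 0.21, edgeR adjusted p = 0.0107), a call lost without CpG 3 h replicate 2 (0.0722) or combination 3 h replicate 2 (0.176).

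**Figure D5:**
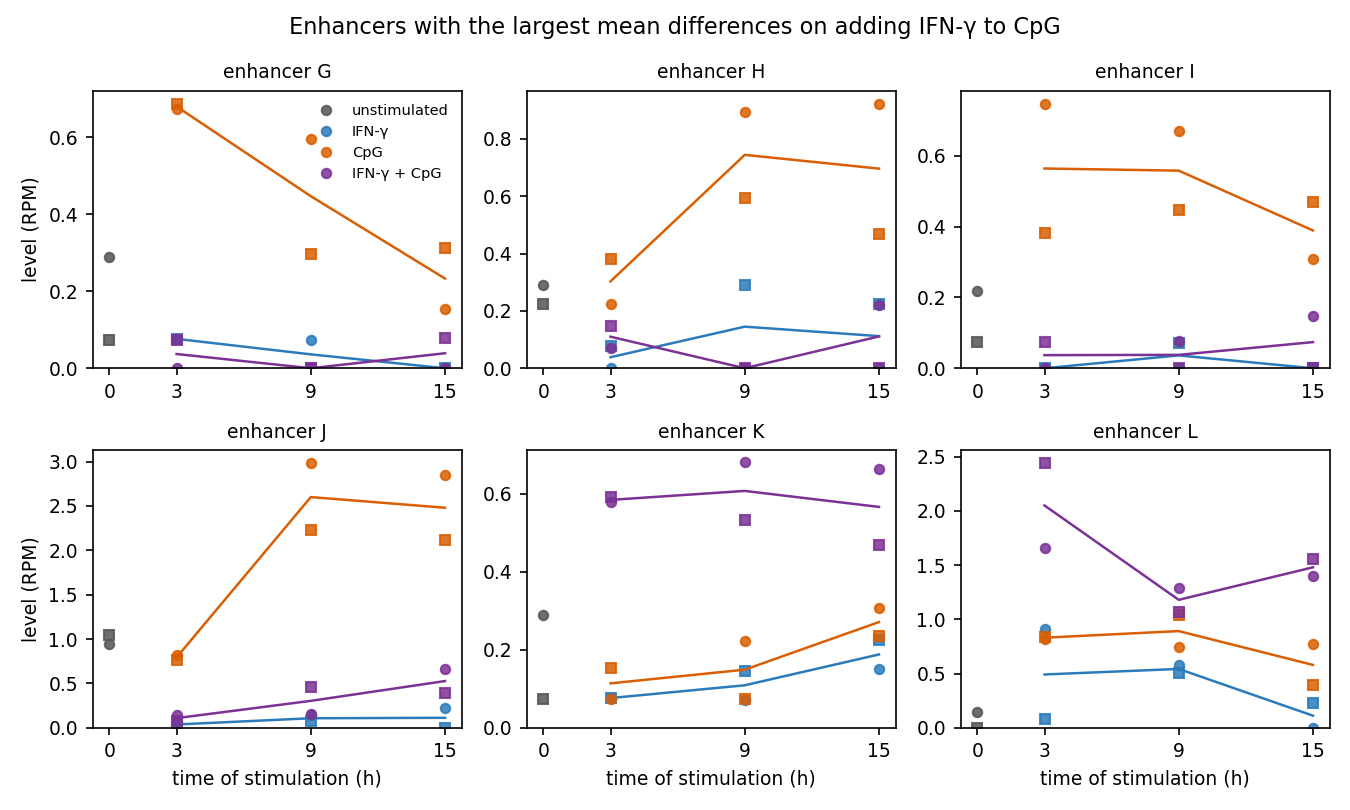
Level in RPM against time in h for 4 CpG-dependent enhancers with the largest mean falls on adding IFN-γ to CpG and the 2 with a rise, by the naming rule: G is chr5:90759196-90759569, H chr11:117224989-117225392, I chr11:83471672-83472028, J chr6:146014641-146015042, K chr17:7665505-7665896 and L chr17:50464319-50464807. Circles are replicate 1, squares replicate 2, and lines join group means. In G to I the combination lies near IFN-γ alone. In J the means of the combination lie between those of IFN-γ alone and CpG alone at each time. In K and L the combination lies above CpG alone.

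Falls and rises on adding IFN-γ were also named at single times, where folds from or to no tag rest on the floor and cannot be ranked. At 3 h, enhancer chr10:17648333-17648543 held 13 and 12 tags with CpG and 1 and 0 with both (25 against 1, ratio 25.8, exact 95% counting interval 4.23 to 1060, edgeR adjusted p = 2.6e-04). Enhancer chr11:8544429-8544852 held 8 and 7 with CpG and none with both (at least 5.17-fold lower, edgeR adjusted p = 0.00176). Enhancer chr11:96713520-96713807 held 12 and 17 against 3 and 2 (log2 -2.84 ± 0.62, edgeR adjusted p = 4.34e-04), which was the call at 3 h that DESeq2 shared (0.0437). Each of these 3 calls held without each library. At 15 h chr11:96713520-96713807 stood at 31 and 36 against 34 and 30 tags, so that the groups overlapped there. Of the 39 enhancers that rose from 3 to 15 h with both stimuli, 8 were called lower with IFN-γ at 3 h. Both calls use the same combination libraries at 3 h, so a low value there favours both and the overlap is partly built in. This overlap was not counted among all tested enhancers.

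The rises at 3 h were chr5:86221518-86221903, from 1 and 3 tags with CpG to 15 and 22 with both (8.95-fold, edgeR adjusted p = 0.0025), lost without CpG 3 h replicate 1 (0.103), and chr11:83627963-83628532, from 2 and 1 to 11 and 19 (ratio 9.67, exact 95% counting interval 3.01 to 49.5, edgeR adjusted p = 0.0083), lost without CpG 3 h replicate 1 (0.066), CpG 3 h replicate 2 (0.131) or combination 3 h replicate 2 (0.105). Enhancer chr10:67431069-67431507, with 15 against 1 tags (ratio 14.5, 2.23 to 611, edgeR adjusted p = 0.0466), was lost without CpG 3 h replicate 1 (0.114), CpG 3 h replicate 2 (0.295) or combination 3 h replicate 2 (0.329). In all 3 the combination at 3 h was higher than at 15 h in both libraries.

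At 9 h, chr11:117224989-117225392 held 12 and 8 tags with CpG and none with both (at least 6.54-fold lower, edgeR adjusted p = 0.00366), lost without CpG 9 h replicate 1 (0.0637), combination 9 h replicate 1 (0.0875) or combination 9 h replicate 2 (0.075). Enhancers chr11:3860646-3860957 and chr3:126448771-126449054 each held 13 tags with CpG and none with both (lower by 4.25-fold or more, edgeR adjusted p = 0.0298 and 0.0381), lost without any 1 of the 4 libraries (0.0511 to 0.249 and 0.0637 to 0.276). The rises at 9 h were chr2:77937049-77937442, with 14 and 16 against 6 and 4 tags (3.06-fold, edgeR adjusted p = 0.0376), and chr1:171486081-171486566, with 14 and 22 against 7 and 7 (2.62-fold, edgeR adjusted p = 0.0259). The former was lost without any 1 of the 4 libraries (0.0868 to 0.263), and the latter without CpG 9 h replicate 1 (0.111), CpG 9 h replicate 2 (0.18) or combination 9 h replicate 2 (0.379). Enhancer chr19:11349540-11350041 was 1.54-fold higher at 9 h (edgeR adjusted p = 0.0426), lost without any 1 of the 4 (0.117 to 0.229). By whole-library totals none of these 3 rises was called (edgeR adjusted p = 0.115, 0.111 and 0.257).

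At 15 h, chr16:14170396-14170748 held 7 and 7 tags with CpG and 0 and 1 with both (ratio 14.3, exact 95% counting interval 2.18 to 606, edgeR adjusted p = 0.042). Enhancer chr2:117129364-117129727 held 7 and 8 with CpG and 24 and 26 with both (3.26-fold higher, edgeR adjusted p = 0.0437), the only rise called at 15 h. Both calls were lost without any 1 of the 4 libraries (0.134 to 0.245 and 0.142 to 0.282), and the former by whole-library totals (0.0676).

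Whether the difference made by IFN-γ changed from 3 to 15 h was tested as an interaction. It was called for 2 of the 794, both with a difference that was higher at 15 h than at 3 h (0.101% of all tested). Enhancer chr7:75319181-75319526 held 28 and 34 tags with CpG and 12 and 18 with both at 3 h, and 55 and 44 against 98 and 54 at 15 h (interaction log2 1.85 ± 0.46, edgeR adjusted p = 0.041). Enhancer chr11:8544429-8544852 held 8 and 7 tags with CpG and none with both at 3 h, and 0 and 1 against 4 and 4 at 15 h (edgeR adjusted p = 0.041). At 3 h both libraries with IFN-γ lay lower in each of the 2, and at 15 h higher except for 1 library of the former. Neither was called by DESeq2 or by whole-library totals, nor without most single libraries (adjusted p up to 0.432 and 0.235). The median change was 0.16 over the 794 and -0.05 over all tested. For the other enhancers the difference in kinetics between CpG alone and the combination did not pass this test, so that the 6 and 48 calls from 3 to 15 h are not shown to differ enhancer by enhancer.

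IFN-γ alone against unstimulated cells is given as a description, because the libraries with IFN-γ alone are among those without CpG that had to be low. Over the mean of times, 64 of the 794 were lower and 6 higher (8.06% and 0.756%), where of all tested enhancers 8.54% were lower and 8.84% higher. The share of falls was thus near that of all tested enhancers, and the rule limits the rises. Enhancer chr2:13421519-13422300 held 21 and 3 tags in unstimulated cells and 6 libraries with IFN-γ held 4 tags in all, which was called lower (edgeR adjusted p = 1.67e-06) except without unstimulated replicate 1 (0.248). Enhancer chr11:117832354-117832607 held 8 and 5 tags unstimulated and 3 in the 6 libraries with IFN-γ (ratio 12.8, exact 95% counting interval 3.51 to 69.9, edgeR adjusted p = 4.77e-04). Leaving out an unstimulated library left 22 or 23 calls. CpG against unstimulated cells is the contrast of the rule. With CpG, 24, 94 and 91 of the 794 were called higher at 3, 9 and 15 h (0.605%, 2.62% and 2.77% of all tested), and with both stimuli against IFN-γ 11, 70 and 108 (0.554%, 2.49% and 3.55%).

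The positions of the 794 were compared with those of the others as a description, with no test. A second one of the 794 was found within 20 kb of 337 (42.4%), and of the 3175 others 446 (14.0%) had one of the 794 within that distance. Any tested enhancer was found within 20 kb of 63.6% and 62.8%. The median widths were 356 and 361 bases. Joined at gaps of up to 20 kb, 457 stood alone, 100 groups held 2, 23 held 3, 12 held 4, 2 held 6 and 1 held 8. Among chromosomes with more than 10 tested enhancers, the share taken by the 794 ran from 15.3% on chromosome 11 to 27.2% on chromosome 15. Neighbours this close can share transcripts, so they do not count as independent regions.

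The group of 8 was chr4:144969326-145003642, where all 8 tested enhancers belonged to the 794. Its sum was 1.21 ± 0.0273 RPM in unstimulated cells, 2.94 ± 0.809, 4.16 ± 0.832 and 3.22 ± 0.123 with CpG, and 2.6 ± 0.714, 2.39 ± 0.474 and 3.65 ± 0.358 with both stimuli. The groups of 6 were chr17:18087218-18122486 and chr4:116512393-116540718, with 6 of 7 tested enhancers each. On chromosome 17 the sum was 0.0723 ± 0.102 RPM in unstimulated cells, 0.829 ± 0.201, 2.45 ± 0.111 and 2.25 ± 0.029 with CpG, and 1.39 ± 0.643, 1.93 ± 0.368 and 2.38 ± 0.174 with both. On chromosome 4 it was 0.693 ± 0.349 RPM unstimulated, 1.55 ± 0.0775, 1.52 ± 0.154 and 1.44 ± 0.0733 with CpG, and 2.82 ± 0.924, 1.06 ± 0.00397 and 2.03 ± 0.67 with both. In the chromosome 17 group, which holds chr17:18102988-18103257, both libraries with CpG at 3 h (0.971 and 0.687 RPM) lay below those at 9 and 15 h, and in the group of 8 both libraries with CpG at 9 h (3.58 and 4.75 RPM) lay above those at 3 and 15 h. Of 199 pairs of neighbours within 20 kb, 65.3% had the same sign of the mean difference made by IFN-γ, against 60.5% of 575 pairs farther apart, a comparison added after the values were seen.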

How the data were processed

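Capped RNA 5' ends were counted in 20 nAnT-iCAGE libraries of 10 groups of 2. Tables deposited by the authors were used, 1 of raw counts of tags at 11222 enhancers and 1 of RPM of the whole library, which together give the library totals. Per the submitters' processing notes, the reads were handled with HISAT2 2.1.0, BWA 0.7.10, Trimmomatic 0.38 and FastQC 0.11.5 on build mm39. How enhancers were called is not given in the sources used here. All members and lists were chosen with earlier results of these data known.

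Counts were fitted with edgeR 4.0.16 (robust quasi-likelihood F-test, two-sided, R 4.3.3), 1 coefficient per group, TMM factors on enhancer tags and 10 residual degrees of freedom. All 3969 enhancers with 30 or more tags were tested, because filterByExpr (2792 kept, 531 of the 794) passes enhancers through single groups. The total of 30 tags is not neutral to CpG either, since 29 of the 794 reached it with no tag in the 8 libraries without CpG. The common biological coefficient of variation was 17.2%. The SE is the log2 change divided by the square root of F. Folds are ratios of mean RPM, with 3 tags as the floor of a group that had none, and with an exact 95% interval at 1 to 3 tags. These intervals cover only counting error. The floor allows for counting error in the group without a tag, but takes the tags of the other group as exact. A fold given as at least a value therefore depends on that count and is no 95% limit. The fit was tested on simulated data.

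Named enhancers were the 6 with the highest level with CpG, the 5 with the most tags among those without a tag in the libraries without CpG, 2 on each side of each threshold, and the largest called changes with groups that do not overlap and a mean of at least 5 tags. For these changes up to 4 each way were taken for 15 h against 3 h and for the mean effect of IFN-γ, 3 at single times and for the interaction (whatever the overlap), and 2 for IFN-γ alone. Others are marked in the text. Genes near the enhancers, gene lists and cell type markers were not analysed here, since the annotation used here is on GRCm38 and coordinates were not converted between builds. Whether starts count from 0 or 1 is not stated. Alternatives were DESeq2 1.42.0, RLE factors, other filters, whole-library totals, the replicate block, limma 3.58.1 on log2 of RPM plus 0.5, other choosing rules and leaving out each library.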

Additional observations from a re-analysis of the deposited data

Results flagged for a closer look

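The difference made by IFN-γ on top of CpG changed from 3 to 15 h in 2 enhancers by a test of the interaction itself. At chr11:8544429-8544852 the interaction was 8.61 ± 2.03 on the log2 scale (SE; edgeR adjusted p = 0.041). With CpG it held 8 and 7 tags at 3 h and 0 and 1 at 15 h, and with both stimuli none at 3 h and 4 and 4 at 15 h. Since 1 group has no tag, the fitted size depends on the prior count and is no estimate of a fold. The call was lost with each of the 8 libraries left out (adjusted p 0.0697 to 0.235).

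At chr7:75319181-75319526 the interaction was 1.85 ± 0.46 (edgeR adjusted p = 0.041), from 28 and 34 tags with CpG against 12 and 18 with both at 3 h to 55 and 44 against 98 and 54 at 15 h. It was lost in 6 of 8 fits without 1 library, with the highest adjusted p, 0.432, without combination 15 h replicate 1. Neither was called with DESeq2, without a filter or by whole-library totals.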

How the results depend on the processing

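In the order CpG 15 against 3 h, 9 against 3 h, both stimuli 15 against 3 h, 9 against 3 h, 15 against 9 h, both against CpG at 3, 9 and 15 h and over the mean, interaction, and IFN-γ against unstimulated, DESeq2 called 1, 1, 3, 1, 0, 1, 2, 0, 23, 0 and 6 of the 794, against 6, 5, 48, 12, 1, 41, 20, 7, 118, 2 and 70. Without a filter, over all 11222 enhancers, the counts were 2, 1, 20, 4 and 1, then 18, 3, 3, 64, 0 and 38. With limma on RPM they were 30, 21, 114, 54, 9, 76, 79, 42, 186, 8 and 46, and 3 for CpG 15 against 9 h (edgeR 0), with 22 higher and 32 lower for both stimuli 9 against 3 h. Whole-library totals moved both against CpG at 15 h to 3 and the interaction to 0. The filterByExpr filter moved both stimuli 9 against 3 h to 19 and both against CpG at 15 h to 12. With RLE factors no total moved by over 1.5 times, but for both against CpG over the mean 13 higher and 105 lower became 20 and 92.

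A CpG ratio of 3 took 436 enhancers and gave 3 calls for CpG 9 against 3 h, 25, 12, 4 and 72 for both against CpG at 3, 9 and 15 h and over the mean, and 26 for IFN-γ alone. A total of 60 tags took 280. The rule on TMM-scaled counts took 716, of which 713 were shared, and moved no count of calls by over 1.5 times. Without the exclusion of enhancers dependent on IFN-γ, 903 were taken, with 19 calls for both stimuli 9 against 3 h and 77, 42, 24 and 191 for both against CpG.

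With 1 library left out, a group is left with 1 library that is assumed to vary like the others. The counts were 1 to 1, 1 to 1 and 0 to 0 for CpG 15 against 3, 9 against 3 and 15 against 9 h, 11 to 19, 4 to 5 and 0 to 1 for both stimuli, 14 to 16, 3 to 5, 2 to 3 and 76 to 100 for both against CpG, 0 to 1 for the interaction and 22 to 63 for IFN-γ alone. Of 279 checks of single named changes with other tools, scalings, filters or the block, 212 kept their call, 67 lost it (32 of 40 with DESeq2) and 0 changed sign, and of 224 with 1 library left out, 96 lost it.

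Replicate numbers did not pair the libraries: over 45 pairs of groups the correlation of deviations was -0.05 to 0.04. The replicate block gave 5, 5, 0, 41, 11, 1, 39, 19, 7, 110, 2 and 67 calls, with CpG 15 against 9 h in the third place, none of these totals moved by over 1.5 times. The 794 held a median of 2 tags per library, and the smallest difference detectable at this depth was not measured.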
